A study of Mus musculus with 2 samples.

Results

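The clustered replication-dependent histone genes are the canonical genes for the linker histone H1 and the core histones H2A, H2B, H3 and H4. The 67 genes described here are the protein-coding genes whose symbol begins with Hist1h, Hist2h, Hist3h or Hist4h in the annotation, out of 22028 protein-coding and 55536 annotated genes. They comprise 6 H1, 18 H2A, 18 H2B, 12 H3 and 13 H4 genes. Of these, 54 lie in the Hist1 cluster on chromosome 13, 10 in the Hist2 cluster on chromosome 3, 2 in the Hist3 cluster on chromosome 11, and 1, Hist4h4, stands alone on chromosome 6. Total RNA from the gastrocnemius, a calf muscle, was taken from 2 males at 4 days of age, both B6CASTF1/J hybrids, and was sequenced after 300 ng of it entered each library. The mice form 1 group of 2 biological replicates with no treatment and no second group, so values are given per library or as mean ± SD (n = 2) and no test between conditions exists. Expected counts in annotated genes summed to 32301531 in replicate 2 and 35281187 in replicate 1. The tissue label was checked on muscle markers: Acta1, the skeletal muscle actin gene, had 12991 TPM in replicate 2 and 13742 TPM in replicate 1.

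Replication-dependent histone mRNAs are made mainly in S phase, when new DNA has to be packed into nucleosomes. They are the known exception among animal mRNAs in normally carrying no poly(A) tail: the transcript is cleaved a few bases past a conserved stem-loop that the stem-loop binding protein, encoded by Slbp, recognises. A total RNA library can sample them, whereas selection of polyadenylated RNA largely loses them. The nuclei of muscle fibres no longer divide, whereas muscle precursors can. In bulk tissue, fewer cells of a type and less RNA per cell cannot be told apart.

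The stem-loop is shown first because it is the feature by which these mRNAs are processed. It was searched as the 16 bases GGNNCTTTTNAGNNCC with any base at N, on the sense strand of annotated transcripts. It was present in 44 of 67 histone genes, against 72 of 21901 protein-coding genes in all (0.329%), of which the 44 are part. On the other strand it was present in none of the 67 and in 16 of the 21901 (0.073%). The commonest form, with the 4 bases of the loop in capitals, was shared by 26 genes of classes H1, H2A, H2B and H3. A second, whose stem differs, was held by 7 H4 genes. Each line below gives a gene and its stem-loop as DNA, 5′ to 3′.
Hist1h1c: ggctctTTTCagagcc
Hist2h2aa2: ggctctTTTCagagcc
Hist1h2bg: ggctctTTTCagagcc
Hist1h3b: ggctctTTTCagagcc
Hist1h4h: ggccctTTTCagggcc
Hist1h4b: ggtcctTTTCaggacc
Hist1h4i: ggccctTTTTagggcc
Hist1h2bb: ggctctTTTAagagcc
Hist2h2ac: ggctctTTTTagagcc

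Other forms kept the stem and changed the loop, or the reverse. The loop of Hist1h2bb was shared by 6 genes (Hist1h1t, Hist1h2bb, Hist1h2bk, Hist1h3c, Hist1h3e and Hist1h3f), that of Hist1h4i by Hist2h4 and, on another stem, by Hist2h2ac, and the stem of Hist1h4b by Hist1h4j. The stem-loop began 21 to 58 bases past the stop codon, with a median of 31. Of the 23 genes without a match, 17 have annotated transcripts that end within 2 bases of the stop codon, so the stretch where a stem-loop would lie is outside the annotation. For Hist1h2bq and Hist1h2br this holds for the 381-base form. Their spliced coding forms of 1254 and 1256 bases were searched too and held no match. The other 6 of the 23 (Hist1h1a, Hist1h2bc, Hist1h3g, Hist1h4a, Hist2h2be and Hist2h3b) reach further without these letters.

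A pair of promoters is printed because both hold the same 3 motifs while their genes differed widely in level. By alignment-based TPM, Hist1h2bg came second among the H2B genes and Hist1h2ba was at 0. The motifs differ in number and place: in the printed windows CCAAT, on either strand, occurs 2 times for Hist1h2bg and 4 times for Hist1h2ba. TATAAA begins 43 and 94 bases before the start, and the octamer 59 and 164. The annotated transcript of Hist1h2ba holds its 384 coding bases only, so the bases printed before it can include untranslated ones. Promoters of 62 of the 67 genes were matched in a RefSeq table of build GRCm38.p6. The windows searched ran past the start and so were longer than those printed, for Hist1h2bg chr13:23571150-23571449. The letters TATAAA, the core of the box bound by TBP, were found on either strand in 35 of the 62 (56.5%), against 14.2% of 27025 promoters in all. CCAAT, the CCAAT box bound by NF-Y, was found in 53 of 62 (85.5%), against 37.9%. The octamer ATTTGCAT, bound by the factor encoded by Pou2f1, was found in 13 of 62 (20.97%), against 1.75%. By class, CCAAT was in every matched promoter of H1, H2A, H2B and H3 but in 3 of 12 H4 promoters, and the octamer was in 7 of 18 H2A and 6 of 16 H2B promoters and in none of the other classes. Many H2A and H2B genes start close together on opposite strands. Their windows share bases, so the same site can be counted for both genes, and these promoters are not separate sequences. The 250 bases before the start of Hist1h2bg (chr13:23571150-23571399, plus strand) and of the testis-type gene Hist1h2ba (chr13:23934157-23934406, minus strand) follow, with the 3 motifs on either strand in capitals.
Hist1h2bg: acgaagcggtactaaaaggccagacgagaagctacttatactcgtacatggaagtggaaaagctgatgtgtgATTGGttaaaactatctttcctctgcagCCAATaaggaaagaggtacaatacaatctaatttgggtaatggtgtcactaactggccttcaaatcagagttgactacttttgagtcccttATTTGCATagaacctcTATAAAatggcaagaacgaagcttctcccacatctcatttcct
Hist1h2ba: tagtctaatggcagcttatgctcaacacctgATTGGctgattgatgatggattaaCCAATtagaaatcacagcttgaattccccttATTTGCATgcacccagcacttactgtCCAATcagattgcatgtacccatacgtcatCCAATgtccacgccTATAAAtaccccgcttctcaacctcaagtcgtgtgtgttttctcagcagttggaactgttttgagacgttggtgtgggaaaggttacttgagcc

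The median level was 88.7 TPM for the 35 genes with TATAAA and 108 TPM for the 27 without. It was 95.1 TPM for the 53 genes with CCAAT and 129 TPM for the 9 without, all 9 of them H4 genes. For the octamer it was 56.6 TPM for the 13 genes with it and 105 TPM for the 49 without. The 13 are all H2A or H2B genes, and the 49 include all 12 matched H4 genes. The CCAAT and octamer medians thus mix motif with histone class, and they were not compared within a class. Hist1h2bg averaged 218 ± 24.5 TPM, while Hist1h2ba was listed at 0 in both libraries of the alignment-based tables. Directly from reads Hist1h2bg averaged 173 ± 31.7 TPM and Hist1h2ba had 30.6 TPM in replicate 2 and 0 in replicate 1. A match of letters is a description of the window.

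Histone mRNA of this family was abundant in the muscle. The 67 genes summed to 7692 TPM (a level per length of transcript, scaled to the whole library) in replicate 2 and 6757 TPM in replicate 1, that is 7224 ± 661 TPM. They took 1.73% ± 0.166 of the TPM of nuclear protein-coding genes and 0.304% ± 0.0321 of the counts in annotated genes. The alignment-based tables, from which these levels come, put 63 of the 67 genes at 1 TPM or more in both libraries (55 by TPM made directly from reads), against 55.3% of all protein-coding genes, 57 at 10 TPM or more and 30 at 100 TPM or more. The median member stood at 95.02 TPM, against 2.41 TPM for all protein-coding genes. The 4 genes under 1 TPM were Hist1h1t, Hist1h2aa and Hist1h2ba, the testis-type members, and Hist2h3c1.

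**Figure D1:**
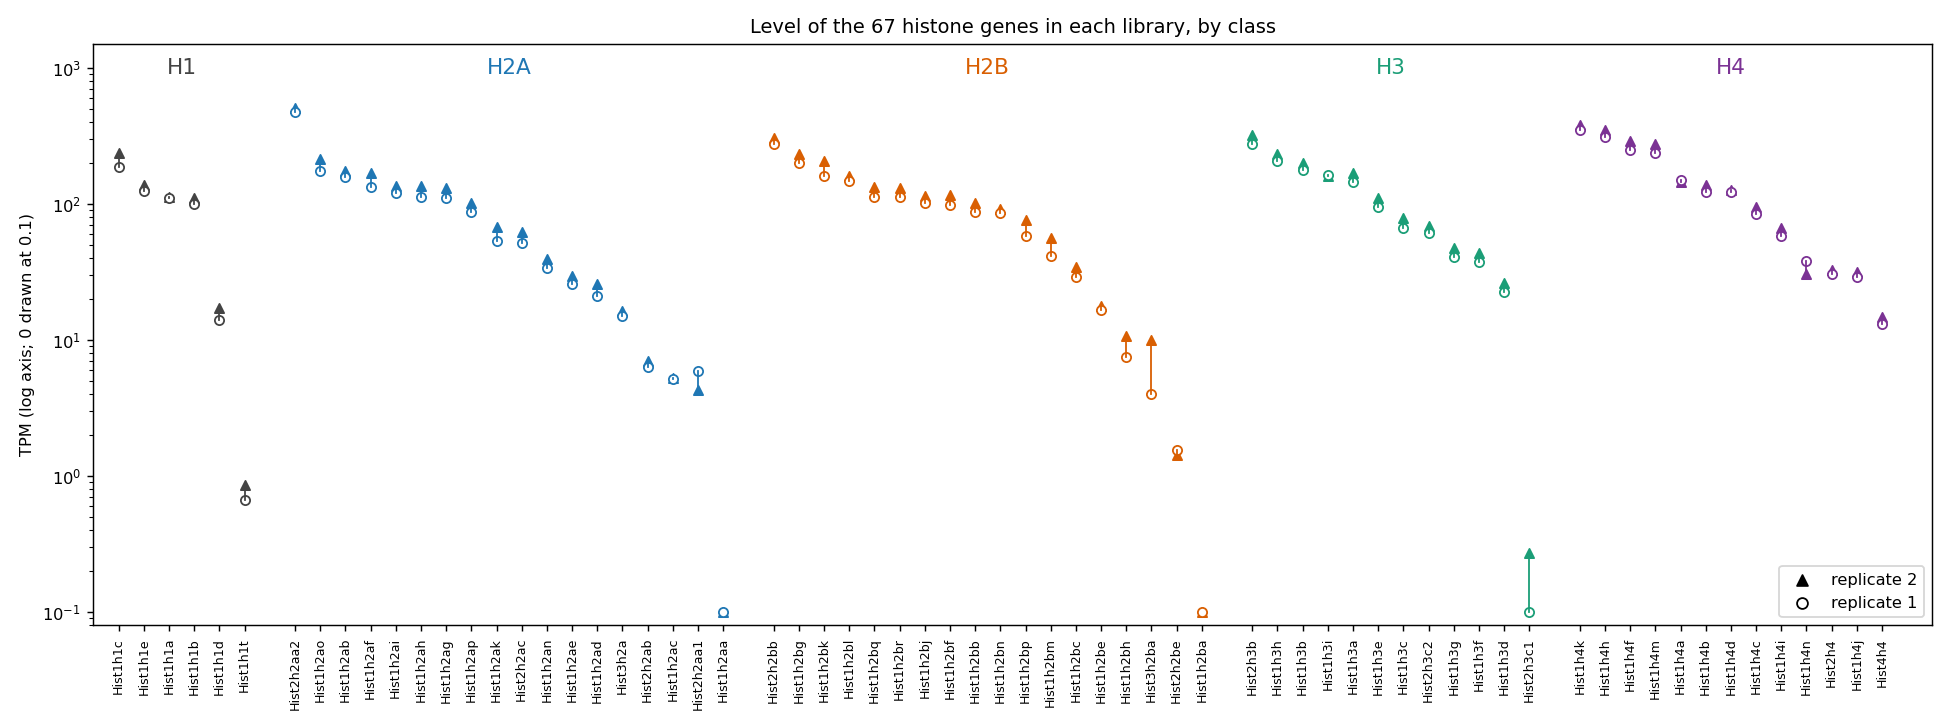
Level of each of the 67 histone genes (vertical axis, TPM on a log scale, with 0 drawn at 0.1) in replicate 2 (triangles) and replicate 1 (open circles), ordered by mean within each class. Most genes lie between 10 and 500 TPM, and replicate 2 lies above replicate 1 for most of them.

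By alignment-based TPM the core histone classes took like shares, with H1 the smallest class. By TPM, H4 held 26.2% ± 0.559 of the sum, H2A 23.7% ± 0.102, H2B 23.2% ± 0.496, H3 19.02% ± 0.0698 and H1 7.998% ± 0.0306, so that H2A and H2B differed by less than 1 percentage point and H4 exceeded H2A in both libraries. The order of the classes depended on the scale. By counts made directly from reads and not divided by length, H1 was the largest class (30.1%) and H4 the smallest (8.91%). The annotated transcripts of Hist1h1c, Hist1h1d and Hist1h1e end 880, 4931 and 1209 bases past the stop codon, while those of Hist1h1a and Hist1h1b end within 48. Per coding length, a scale chosen after these differing ends had been seen, H1 held 13.8% ± 0.281 and H4 29.2% ± 0.787. That scale divides all expected counts of a gene, those outside the coding bases included, by its coding length. In the second quantification, made directly from reads, H2A led with 34.9% ± 0.115 of the summed TPM and H4 held 15.1% ± 0.297. The Hist1 cluster held 82.2% ± 0.333 of the summed TPM and the Hist2 cluster 17.3% ± 0.373, while Hist3 and Hist4 together held under 1%. By expected counts not divided by length Hist3 held 0.983% and Hist4 1.06%, and per coding length 1.02% and 1.38%. The share of Hist1 was between 80.1% and 82.8% on every scale computed.

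**Figure D2:**
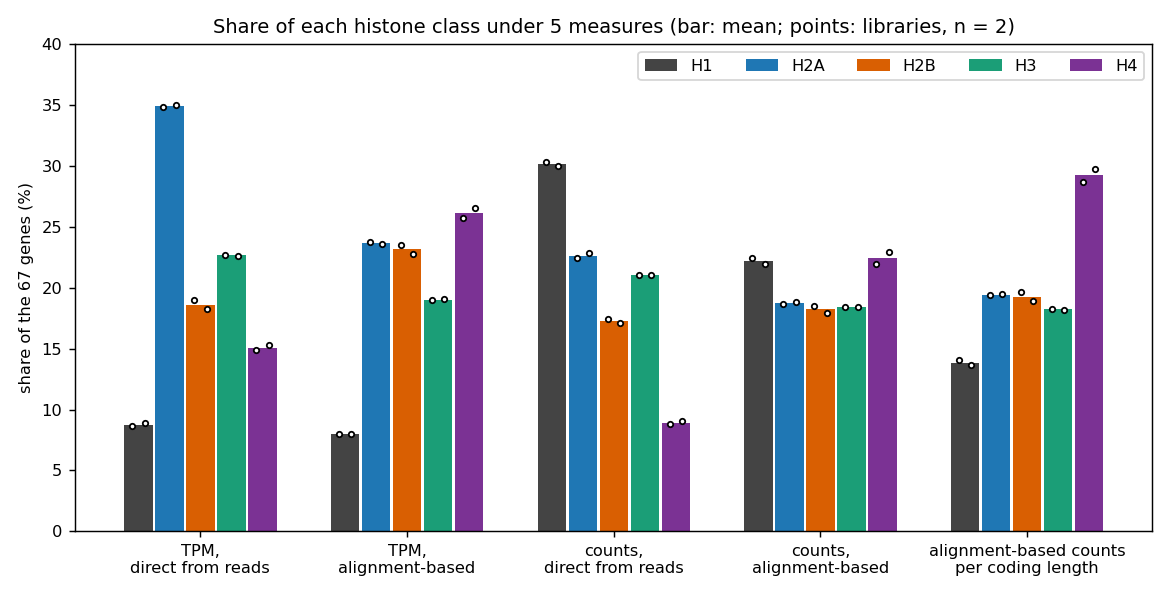
Share of each class in the total of the 67 genes (vertical axis, percent) under 5 measures; bars are the mean of 2 libraries and points the libraries. H4 is the largest class by alignment-based TPM (26.2%) and per coding length (29.2%), H2A by TPM made directly from reads (34.9%) and H1 by direct counts not divided by length (30.1%).

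The H1 genes encode the linker histones, which bind DNA between nucleosomes. Hist1h1c was highest, with 237 TPM in replicate 2 and 188 TPM in replicate 1. Hist1h1e followed with 138 TPM in replicate 2 and 125 TPM in replicate 1. Both libraries put Hist1h1c over Hist1h1e, and Hist1h1e over Hist1h1a (113 TPM in replicate 2 and 110.3 TPM in replicate 1) and Hist1h1b (111 TPM in replicate 2 and 100.3 TPM in replicate 1). Hist1h1a and Hist1h1b did not differ beyond their spread. By TPM made directly from reads the order was another: Hist1h1b had 245 TPM in replicate 2 and 225 TPM in replicate 1 and Hist1h1a 205 TPM in replicate 2 and 196 TPM in replicate 1, both above Hist1h1e with 174 TPM in replicate 2 and 156 TPM in replicate 1. Hist1h1c, with 295 TPM in replicate 2 and 221 TPM in replicate 1, overlapped with Hist1h1b there. Hist1h1d stood lower, with 17.1 TPM in replicate 2 and 14.1 TPM in replicate 1, but its annotated transcript is 7425 bases long, 4884 of them past the stem-loop. Per kb of coding length it reached 4836 ± 425 counts, above Hist1h1a (3157 ± 99.1) and below Hist1h1e (10291 ± 191) and Hist1h1c (13690 ± 1533). Hist1h1t, the linker histone gene of spermatocytes, had 19 counts in replicate 2 and 16 in replicate 1, or 0.765 ± 0.134 TPM. Linker histone genes outside the clusters were led by H1f0, the gene for a linker histone of resting and differentiated cells, at 103 ± 22.99 TPM. H1fx stood at 15.6 ± 3.69 TPM. The clustered H1 genes together reached 4.96 ± 0.654 times the sum of these 2.

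The H2A genes were led by a gene of the Hist2 cluster. Hist2h2aa2 (chr3:96239749-96240276, minus strand) had 506 TPM in replicate 2 and 477 TPM in replicate 1, the highest level of any of the 67. Its neighbour Hist2h2aa1, with an identical coding sequence, had 4.32 TPM in replicate 2 and 5.94 TPM in replicate 1, and the posterior SD of its count was 47.8% of that count, so the split within this pair is uncertain. By alignment-based TPM the next were Hist1h2ao (195 ± 27.6 TPM), Hist1h2ab (167 ± 11.1 TPM) and Hist1h2af (152 ± 25.1 TPM). Directly from reads Hist2h2aa1 led (1026 ± 69.8 TPM), followed by Hist1h2ad (622 ± 70.7 TPM) and Hist1h2ap (389 ± 59.7 TPM). The 18 genes encode 9 different proteins. The protein shared by 9 Hist1 genes took 46.7% ± 0.4199 of the H2A TPM, and that of Hist2h2aa1 and Hist2h2aa2 took 29.1% ± 1.65. The 9 are Hist1h2ab, Hist1h2ac, Hist1h2ad, Hist1h2ae, Hist1h2ag, Hist1h2ai, Hist1h2an, Hist1h2ao and Hist1h2ap. Each the only gene of its protein, Hist1h2af took 8.86% ± 0.620, Hist1h2ah 7.249% ± 0.274 and Hist1h2ak 3.53% ± 0.263. Hist2h2ac took 3.305% ± 0.127, Hist3h2a 0.919% ± 0.0409 and Hist2h2ab 0.391% ± 0.00897. Hist1h2aa, the H2A gene of testis, had no count in either library in the alignment-based tables, and 2 and 0 directly from reads in replicates 2 and 1; at 3 alignment-based counts its level would be 0.378 TPM in replicate 2 and 0.352 TPM in replicate 1.

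Of the H2A genes outside the clusters, H2afz, whose product marks promoters, led with 87.1 ± 1.36 TPM. H2afv, its close relative, stood at 40.03 ± 0.707 TPM, H2afx, whose product is phosphorylated at DNA breaks, at 35.02 ± 3.104 TPM, and H2afj at 8.86 ± 2.07 TPM. The macro-domain genes H2afy and H2afy2 stood at 36.4 ± 0.191 TPM and 6.62 ± 1.14 TPM. The clustered H2A genes summed to 7.99 ± 0.4603 times these 6.

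By alignment-based TPM, the H2B genes were led by Hist2h2bb with 307 TPM in replicate 2 and 276 TPM in replicate 1, followed by Hist1h2bg with 235 TPM in replicate 2 and 200.2 TPM in replicate 1. Hist1h2bk averaged 183 ± 32.6 TPM and Hist1h2bl 155 ± 10.3 TPM. Hist2h2bb lay above the others in both libraries, and Hist1h2bg lay above Hist1h2bk in each. Directly from reads Hist1h2bf (347 ± 35.1 TPM), Hist1h2bb (313 ± 42.4 TPM) and Hist1h2bj (284 ± 34.5 TPM) led, with Hist2h2bb at 165 ± 32.3 TPM, and per coding length Hist1h2bg (8348 ± 525 counts per kb) exceeded Hist2h2bb (6081 ± 162). The 18 genes encode 12 proteins by the longest annotated coding sequence of each gene, and 11 by the coding transcript of highest level. The difference lies in Hist1h2bq and Hist1h2br, where the longest is a spliced form holding 1.55% and 0.38% of the gene's level. By the transcript of highest level, an alternative added after seeing the data, the protein of Hist1h2bf, Hist1h2bj, Hist1h2bl, Hist1h2bn, Hist1h2bq and Hist1h2br took 42.1% ± 0.917 of the H2B TPM, of which the first 4 genes held 27.4% ± 0.971. That of Hist1h2bc, Hist1h2be and Hist1h2bg took 15.9% ± 0.0686, but 28.5% ± 0.496 per coding length; the annotated transcripts of Hist1h2bc and Hist1h2be end 742 and 1906 bases past the stop codon. Hist2h2bb, the only gene of its protein, took 17.4% ± 0.635. Hist2h2be and Hist3h2ba were low, at 1.495 ± 0.0919 TPM and 7.04 ± 4.31 TPM. Hist1h2ba, the H2B gene of testis, had no count in either library in the alignment-based tables; at 3 counts, the limit that a count of 0 allows, its level would be 0.386 TPM in replicate 2 and 0.3598 TPM in replicate 1. The direct quantification gave it 60 counts in replicate 2 and 0 in replicate 1. Of its 31-base stretches, 55.9% occur in no other annotated gene. The 6 germ cell markers (Ddx4, Dazl, Sycp3, Prm1, Tnp1 and Stra8) summed to 0.16 TPM in replicate 2 and 0.05 TPM in replicate 1, with 4 of the 6 at 0 in both.

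The H3 genes divide into 2 main proteins. Hist2h3b led with 319 TPM in replicate 2 and 276 TPM in replicate 1, then Hist1h3h with 235 TPM in replicate 2 and 207 TPM in replicate 1 and Hist1h3b with 201 TPM in replicate 2 and 177 TPM in replicate 1. Hist1h3i averaged 162 ± 0.721 TPM. Directly from reads Hist1h3b (497 ± 61.1 TPM) and Hist2h3b (491 ± 63.2 TPM) overlapped at the top, with Hist1h3h at 215 ± 27.6 TPM. Hist2h3c2, of the same cluster as Hist2h3b, averaged 64.95 ± 5.47 TPM. The protein shared by Hist1h3b, Hist1h3c, Hist1h3d, Hist1h3e, Hist1h3f, Hist2h3b and Hist2h3c2 took 57.5% ± 0.725 of the H3 TPM and that of Hist1h3a, Hist1h3g, Hist1h3h and Hist1h3i 42.5% ± 0.738. The gap widened per coding length, to 69.1% ± 0.5104 for the 7 genes and 30.9% ± 0.544 for the 4. Hist2h3c1, whose longest annotated coding sequence gives a protein of its own but whose shorter form encodes that of the 7 genes, and which has no 31-base stretch of its own, had 12 counts in replicate 2 and 0 in replicate 1. H3f3a and H3f3b encode the replacement H3 that is deposited outside S phase. They stood at 327 ± 15.3 TPM and 187 ± 44.03 TPM. The clustered H3 genes summed to 2.67 ± 0.0737 times these 2. Cenpa, the H3 gene of centromeres, stood at 13.9 ± 3.104 TPM.

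All 13 H4 genes encode 1 identical protein and differ in their untranslated and synonymous bases. Hist1h4k led with 383 TPM in replicate 2 and 348 TPM in replicate 1, followed by Hist1h4h with 351 TPM in replicate 2 and 310.2 TPM in replicate 1. Hist1h4f averaged 270.1 ± 28.7 TPM and Hist1h4m 257 ± 28.1 TPM; these 2 overlapped across libraries. By alignment-based TPM all 13 exceeded 10 TPM in both libraries. Directly from reads 9 of the 13 reached 1 TPM in both, against 15 of 18 H2A, 15 of 18 H2B, 11 of 12 H3 and 5 of 6 H1 genes, and Hist1h4h (676 ± 102 TPM) and Hist1h4a (559.6 ± 43.3 TPM) led. The annotation of Hist1h4k holds the 312 coding bases only, and per coding length it came 10th of the 67, with 7036 ± 117 counts per kb. Hist1h4d, at 125 ± 3.03 TPM, came 3rd on that scale with 11797 ± 306. Hist2h4 stood at 31.4 ± 1.44 TPM and Hist4h4 at 13.9 ± 1.15 TPM; their annotated transcripts of 1630 and 2863 bases are among the longer ones.

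TPM went with where the annotated transcript ends. The 22 genes annotated to within 100 bases past the stem-loop had a median of 114 TPM, and the 17 annotated to the stop codon one of 123 TPM. The 22 annotated over 100 bases past the stem-loop, as far as 4884 bases, had a median of 28.97 TPM. Per kb of coding length the order was another: the medians were 3128, 2698 and 3354 counts. Both scales divide the same counts by different lengths, so their contrast follows in part from the annotated lengths. The 22 genes with long annotated ends held 17.2% ± 0.159 of the summed TPM but 39.9% ± 0.303 of the counts.

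**Figure D3:**
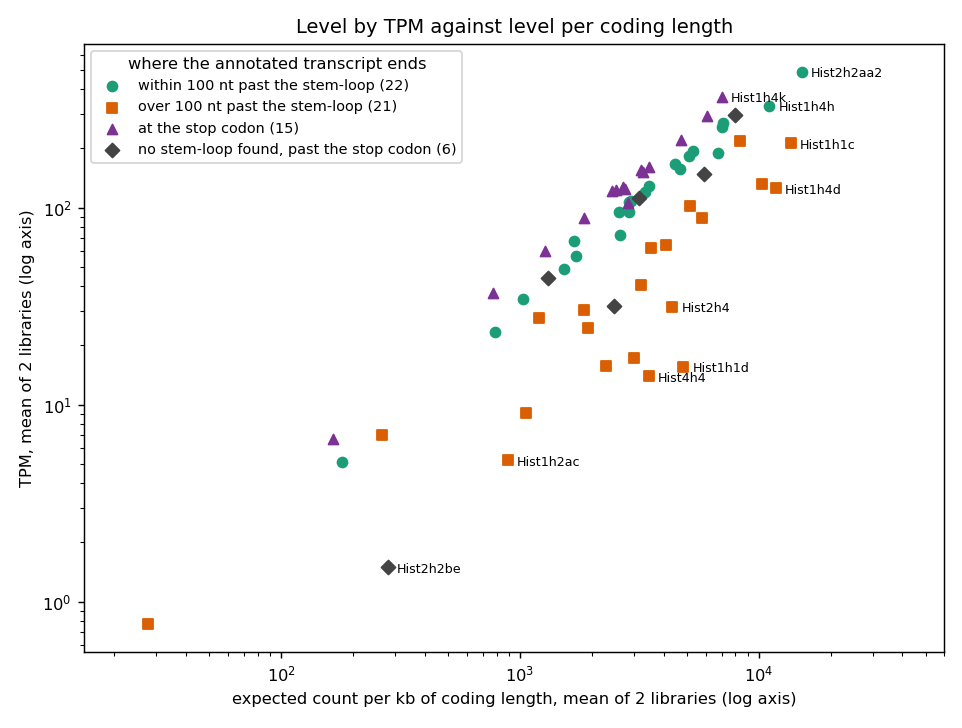
Mean TPM (vertical axis, log) against mean expected count per kb of coding length (horizontal axis, log) for the 64 histone genes averaging at least 10 counts, marked by where the annotated transcript ends. At the same value per coding length, genes annotated over 100 bases past the stem-loop (squares), such as Hist1h1d and Hist4h4, lie below the others. Both axes use the same counts, so this follows from dividing them by a longer transcript for TPM.

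Of the 18 H2A and 18 H2B genes, 12 of each stand head to head in 12 H2A and H2B pairs on opposite strands, with 175 to 305 bases between their starts. In 11 of the 12 pairs both genes exceeded 1 TPM. The H2A gene was higher by TPM in 3 and the H2B gene in 8, and 7 of the 11 pairs lay within 2-fold. By TPM made directly from reads the order was turned in 7 of the 11: the H2A gene was higher in 8 and the H2B gene in 3, and 3 pairs lay within 2-fold. Hist1h2ag and Hist1h2bj were nearly level by alignment-based TPM, with 121 ± 15.03 TPM and 108 ± 8.96 TPM, but had 133 ± 24.7 TPM and 284 ± 34.5 TPM directly from reads. Hist1h2ae and Hist1h2bg, which share the promoter region printed for Hist1h2bg, were not: alignment-based, 27.7 ± 2.45 TPM stood against 218 ± 24.5 TPM, a log2 ratio of -2.97, and -2.80 per coding length. Directly from reads these 2 overlapped, with 189.8 ± 36.6 TPM and 173 ± 31.7 TPM. The widest alignment-based gap was between Hist2h2ac (56.6 ± 7.59 TPM) and Hist2h2be (1.495 ± 0.0919 TPM), with a log2 ratio of 5.15, 2.62 per coding length and 5.32 by direct TPM. In the pair with both genes at 0 alignment-based counts, Hist1h2aa and Hist1h2ba, the gap is the longest, 305 bases.

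Alignment-based levels differed widely within the Hist2 cluster. Among its 10 genes, Hist2h2aa2, Hist2h3b and Hist2h2bb exceeded 275 TPM in both libraries, Hist2h3c2, Hist2h2ac and Hist2h4 lay between 30 and 70 TPM, and Hist2h2ab (6.68 ± 0.488 TPM), Hist2h2aa1, Hist2h2be and Hist2h3c1 lay under 10 TPM. In the Hist3 cluster, Hist3h2a had 15.7 ± 0.806 TPM. Of the 67 genes, 62 have a single exon, and 62, not all of them the same genes, have 1 protein-coding transcript. In Hist1h2be, a gene of 2 exons, 85.5% ± 2.68 of the alignment-based level lay on transcript Hist1h2be-201. Its exons share 496 bases (chr13:23620629-23621124) with the annotated 3′ end of Hist1h1e on the same strand, so reads of these 2 genes cannot be told apart there.

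The 2 quantifications of the same libraries disagreed on these genes far more than on others. Direct from reads, the 67 genes had 69472 counts in replicate 2 and 63956 in replicate 1, against 105568 and 99271 in the alignment-based tables. Among the 61 that averaged at least 100 counts, 31 were more than 2-fold lower in the direct counts, against 0.717% of protein-coding genes, and 3 had over 2-fold more, against 0.350%. The median log2 ratio of counts, direct over alignment-based, was -1.09 for the 61 genes and 0.09 for all protein-coding genes with that count.

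The H4 genes held the largest gap. Their direct counts summed to 25.9% of the alignment-based ones, against 61.7% for H2B, 74.4% for H3, 78.6% for H2A and 88.4% for H1, and 11 of the 13 were more than 2-fold lower. Hist1h4f had direct counts of 1 in replicate 2 and 0 in replicate 1, against 2311 and 2134 alignment-based. Hist1h4k had 0 and 2, against 2221 and 2169. The gap was not limited to indistinct sequences. Hist1h4d, of whose 31-base stretches 85.3% occur in no other gene, had 21 and 30 direct counts, against 3613 and 3748. Hist2h4, at 97.7%, had 19 and 22, against 1354 and 1362. Hist1h4a was an exception, with direct counts of 2378 and 2338, against 1739 and 1937.

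Copies with identical coding bases were also compared as sums. Hist2h2aa1 had 5265 counts in replicate 2 and 5228 in replicate 1 directly from reads and Hist2h2aa2 had 0, the opposite of the alignment-based split. Their sum was 5265 and 5228 direct counts, against 5970.0 and 6067 alignment-based, so the pair was high in either table. Of the 31-base stretches of Hist2h2aa1, 89.75% also occur in Gm20634, a transcript entry that is no member. So do 80.6% of those of Hist2h3b and 64.2% of those of Hist2h3c2. Gm20634 had 1009 direct counts in replicate 2 and 1165 in replicate 1, against 190 and 253 alignment-based. Whether reads passed between this entry and the members was not tested. The log2 ratio of Hist2h2aa2 (direct over alignment-based TPM) was -12.26. For Hist1h2ao and Hist1h2ap, also identical in their coding bases, the sum was 1340.0 and 1198 direct counts, against 3299 and 2943. The direct counts lay almost wholly on Hist1h2ap. The sum of Hist1h2bq and Hist1h2br differed more: 16 and 24 direct counts stood against 2115 and 1916. The posterior SD of the alignment-based count was 46.6% of the count for Hist1h2bq and 48.02% for Hist1h2br. The pair Hist1h4m and Hist1h4n had 465 and 518, against 2562 and 2475. Among members averaging at least 100 alignment-based counts, those more than 2-fold higher in the direct counts were Hist1h2ad, Hist1h2ae and Hist1h2be. Hist2h2aa1, with 57 alignment-based counts in replicate 2 and 85 in replicate 1, fell under that minimum. Hist1h2ad had direct counts of 3109 and 2895, against 330 and 291.

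**Figure D4:**
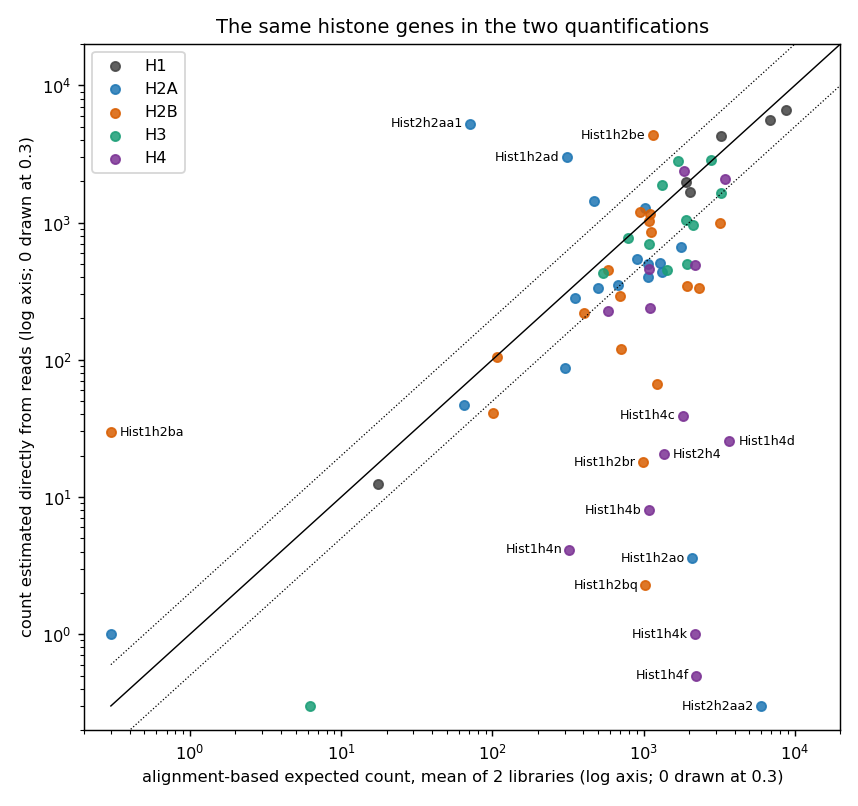
Mean count of each histone gene estimated directly from reads (vertical axis, log, 0 drawn at 0.3) against its mean alignment-based expected count (horizontal axis, log), coloured by class; the solid line marks equal counts and the dotted lines 2-fold. Of the genes averaging at least 100 counts, 31 lie more than 2-fold below the line, 11 of them H4 genes, and 3 more than 2-fold above it.

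Disagreement was commonest where sequence is shared. Among the 18 of the 61 genes with under 20% of 31-base stretches of their own, 16 differed more than 2-fold, as did 10 of 24 genes with 20% to 60% and 8 of 19 with more. Across the 61 genes, the unique share and the absolute log2 difference had a Spearman rho of -0.42, given as a description, since these genes share libraries, class and sequence. The median posterior SD of the alignment-based count was 4.18%, 2.07% and 0.297% of the count in these 3 groups.

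Between the libraries, replicate 2 held slightly more histone mRNA. After scaling by trimmed mean of M-values, 59 of the 64 members that averaged at least 10 counts were higher in replicate 2, against 51.2% of all genes with that count, and the median log2 ratio of replicate 2 over replicate 1 was 0.19 for members and 0.01 for all genes. The exact 95% counting interval left out 0 on the higher side for 47 members, against 19.0% of genes, and on the lower side for 1, Hist1h4n, against 17.3%. Such intervals narrow as counts rise, and the shares of genes given here were not matched to the members on count. The medians by class lay between 0.15 (H4) and 0.21 (H2B). The shift was small: 1 member differed more than 2-fold, against 6.17% of genes. That member, Hist3h2ba, had 142 counts in replicate 2 and 60 in replicate 1, a log2 ratio of 1.31 (counting interval 0.88 to 1.79). Hist1h2bh had 459 counts in replicate 2 and 349 in replicate 1, with a log2 ratio of 0.48 (counting interval 0.28 to 0.68). Those of Hist1h2bm and Hist1h2bp were 0.43 and 0.38. Hist1h4n had 274 counts in replicate 2 and 371 in replicate 1, a log2 ratio of -0.35 (counting interval -0.58 to -0.12); 12.5% of its 31-base stretches are its own and the posterior SD was 28.7% of its count. Counting intervals do not cover how reads were split among copies.

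**Figure D5:**
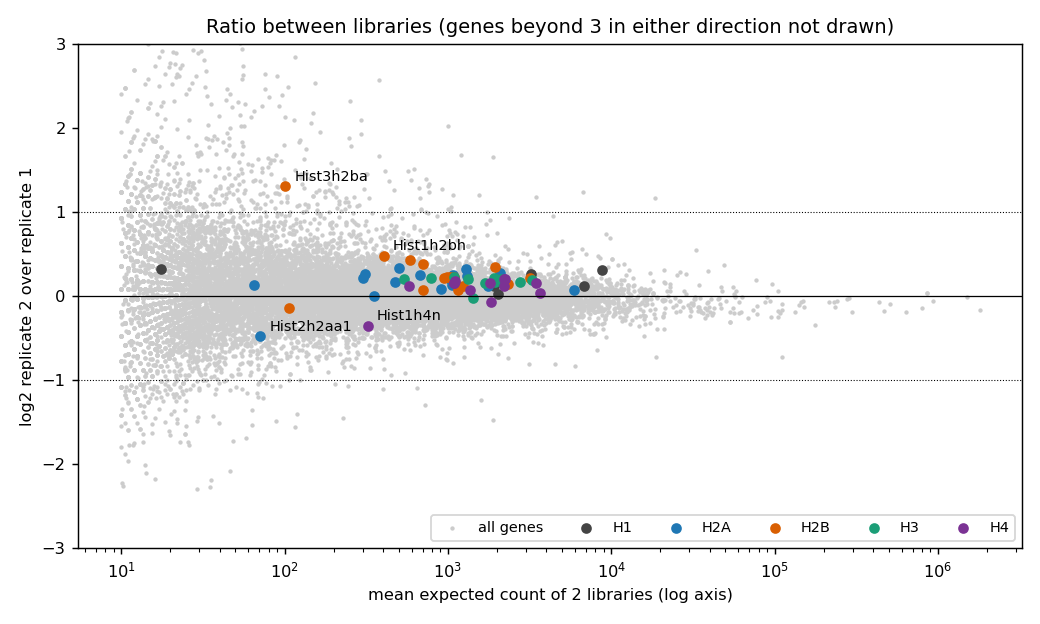
Log2 ratio of replicate 2 over replicate 1 (vertical axis) against mean expected count (horizontal axis, log) for all genes averaging at least 10 counts (grey) and the 64 histone genes among them (coloured by class); dotted lines mark 2-fold. Most histone genes lie slightly above 0, with a median of 0.19, and Hist3h2ba alone lies past 2-fold.

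The libraries also differed in the levels of markers of other cells, most of all those of epidermis. The 6 epidermis markers summed to 746 TPM in replicate 2 and 9.60 TPM in replicate 1, and all 6 were higher in replicate 2, by log2 ratios of 3.69 to 9.60. Krt10 had 282 TPM in replicate 2 and 3.33 TPM in replicate 1, Krt1 had 269 TPM in replicate 2 and 0.330 TPM in replicate 1, Krt5 had 60.8 TPM in replicate 2 and 0.160 TPM in replicate 1 and Krt14 had 43.1 TPM in replicate 2 and 0.0600 TPM in replicate 1. Krtdap had 65.8 TPM in replicate 2 and 5.68 TPM in replicate 1, and Lor had 25.6 TPM in replicate 2 and 0.0400 TPM in replicate 1. The 5 erythroid markers, of red cell precursors, summed to 788 TPM in replicate 2 and 676 TPM in replicate 1. All 5 were higher in replicate 2, by log2 ratios of only 0.06 to 0.27. Some of their counting intervals, such as that of Hbb-bt (-0.11 to 0.23), included 0. The 5 muscle markers summed to 36983 TPM in replicate 2 and 39909.5 TPM in replicate 1, with all 5 lower in replicate 2. The part of these cells in the histone shift was not tested.

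The genes that make, process and deliver histones were present at lower levels. Of the 12 genes for transcription of histone genes, all stood at 1 TPM or more in both libraries, with a median of 6.71 ± 0.378 TPM. Cdk2 (16.8 ± 0.9405 TPM) and its partner cyclins Ccna2 (16.3 ± 2.53 TPM) and Ccne1 (10.6 ± 0.134 TPM) and the factor Yy1 (17.2 ± 0.976 TPM) led. Npat, whose product is the cyclin E and Cdk2 substrate at the histone locus body and was named outside the rule, stood at 5.78 ± 0.0354 TPM. Of the 14 genes for processing and turnover of histone mRNA, 13 stood at 1 TPM or more, with a median of 9.94 ± 0.583 TPM. Srrt (52.5 ± 5.303 TPM), of the cap-binding pathway, Sympk (24.4 ± 0.898 TPM) and Cpsf3 (17.8 ± 0.163 TPM), of the cleavage complex, and Upf1 (18.6 ± 1.34 TPM), which acts in histone mRNA decay, led. Slbp, also named outside the rule, had 14.1 TPM in replicate 2 and 17.2 TPM in replicate 1, a log2 ratio of -0.30 (counting interval -0.46 to -0.14). Zfp473, a cofactor of cleavage, had 0.0800 TPM in replicate 2 and 0.130 TPM in replicate 1. In this list 3 of 14 genes were higher in replicate 2 by scaled counts, against 51.2% of all genes averaging at least 10 counts. Zfp473 is 1 of the 3, with 8 counts in each library, under that minimum. Its log2 ratio was 0.08 (counting interval -1.53 to 1.70). All 15 histone chaperone genes stood at 1 TPM or more, with a median of 18.1 ± 1.22 TPM, led by Npm1 (137 ± 3.03 TPM), Nap1l1 (55.3 ± 6.68 TPM), Atrx (42.3 ± 1.34 TPM) and Ssrp1 (41.9 ± 2.66 TPM), a subunit of FACT. All 17 S phase genes did so too, with a median of 15.7 ± 1.202 TPM. Pcna, the sliding clamp, led with 38.2 ± 1.13 TPM, followed by Top2a (37.7 ± 3.47 TPM), Mki67 (27.3 ± 3.11 TPM) and Rrm1 (21.3 ± 1.54 TPM). Of these 17, 13 were higher in replicate 2, against 51.2% of all genes averaging at least 10 counts, with a median log2 ratio of 0.09. The counting interval included 0 for most of the 17.

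The 11 replication-independent histone genes, genes outside the clusters of which most are known to be made as polyadenylated mRNA, had a median of 36.9 ± 0.474 TPM and all stood at 1 TPM or more. H2afx, one of them, holds the stem-loop letters in its annotated transcript. The 67 clustered genes summed to 7692 TPM in replicate 2 and 6757 TPM in replicate 1, against 929.6 and 792 TPM for these 11, a ratio of 8.403 ± 0.182. By TPM made directly from reads the ratio was 6.56 ± 0.0163. Of the 11, 9 were higher in replicate 2, against 51.2% of all genes averaging at least 10 counts, with a median log2 ratio of 0.32. H3f3b had 0.49 (counting interval 0.45 to 0.54) and H1fx 0.47 (counting interval 0.28 to 0.65).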

How the data were processed

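Per the labels, total RNA was purified with a column kit, and ERCC controls of a profile for stranded, ribosome-reduced libraries were added. The deposited notes name build mm10 with GENCODE M21. Program names, their versions and the strand setting of the counting, not given in the sources used here, leave values of overlapping genes uncertain. Expected counts, and TPM, which divides them by an effective length, were made by the authors from alignments and are in deposited tables for genes and transcripts; the posterior SD of a count is a score the authors deposited. The percent of a gene on each transcript comes from the deposited transcript tables. The signal columns of interval bounds for TPM in the deposited gene tables were not used in the text. Another deposited table gives estimated counts and TPM that the notes say were made straight from the reads; it was summed by gene. All expected counts, spike-ins included, summed to 32507943 in replicate 2 and 35512215 in replicate 1. Left out were entries named by a bare number (6 counts in replicate 2, 4 in replicate 1).

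Members were joined by gene ID, all 67. The members and gene lists were chosen with earlier results of these data known. Between-library ratios used expected counts, unrounded, scaled with edgeR 4.0.16 under R 4.3.3 by its trimmed mean (TMM), a prior count of 0.5 and a mean count of 10 or more (100 for rankings). Counts were rounded for edgeR, DESeq2 1.42.0 and the 95% counting intervals, which are Clopper-Pearson intervals of how a gene's counts divide between libraries. Intervals and the limit of 3 counts for a count of 0 cover counting error only. Log2 ratios of TPM between quantifications and within gene pairs added 0.1 TPM, which understates low genes. The ratio computation was tested on simulated data. Transcript ends, coding lengths, 31-base stretches, stem-loops and translated coding sequences, of which the longest per gene, or that of highest level, was grouped by identity, come from GENCODE M21. Promoters are RefSeq, build GRCm38.p6; 62 of 67 genes matched. The rule for named genes took all H1 genes, the 4 highest of each other class, all Hist2, Hist3 and Hist4 genes, testis-type genes, and the 5 of largest ratio between libraries and between quantifications. In companion lists it took the 4 highest, and all replication-independent histones and epidermis markers. Other members named for a shared sequence, a pair, an annotated end or a disagreement were chosen after their values were seen.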

Additional observations from a re-analysis of the deposited data

Results flagged for a closer look

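Entries that look like histone genes but are annotated as pseudogenes, and so are no members, held reads. Hist1h2al, a processed pseudogene, had 564 expected counts in replicate 2 and 608 in replicate 1, above the limit of 3 counts that a count of 0 allows, while the direct quantification gave it 0 in both. Hist3h2bb-ps had 68 in replicate 2 and 48 in replicate 1, and 52 and 32 directly from reads. Another such entry, Hist1h2aj, had 0 by both.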

How the results depend on the processing

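The summed level was 10142 TPM directly from reads and 17302 when rescaled to nuclear protein-coding genes, while the members' share of the TPM of those genes was 1.38% directly from reads and 1.73% alignment-based. Their sum was 7692 without replicate 1 and 6757 without replicate 2. Shares moved beyond the small spread between libraries under each other measure. By direct TPM they were H1 8.77%, H2A 34.9%, H2B 18.6%, H3 22.6%, H4 15.1%, Hist1 80.1%, Hist2 19.6%, Hist3 0.2105% and Hist4 0.0848%. By expected counts not divided by length they were H1 22.2%, H2A 18.8%, H2B 18.2%, H3 18.4%, H4 22.4%, Hist1 82.8%, Hist2 15.1%, Hist3 0.983% and Hist4 1.06%. By direct counts they were H1 30.1%, H2A 22.6%, H2B 17.3%, H3 21.1%, H4 8.91%, Hist1 82.6%, Hist2 15.8%, Hist3 0.876% and Hist4 0.6897%. Per coding length, an alternative added after seeing the data, they were H1 13.8%, H2A 19.4%, H2B 19.3%, H3 18.2%, H4 29.2%, Hist1 81.7%, Hist2 15.9%, Hist3 1.02% and Hist4 1.38%. Within H3, the share of the Hist1h3a protein was 33.4% by direct TPM and 30.9% per coding length, against 42.5%. That of the Hist1h2ab protein within H2A was 51.6% and 45.2%, and of the Hist1h2bc protein within H2B 17.8% and 28.5%. By the coding transcript of highest level, an alternative also added after seeing the data, all 3 shares were the same. The causes of these changes were not tested. The number of members at 1 TPM in both libraries was 55 by direct TPM. The median ratio between libraries stayed above 0 under all 7 alternatives, between 0.18 and 0.27; the median of all genes moved with it, to 0.09 with spike-in scaling. Members past 2-fold numbered 2 instead of 1 with no count minimum beyond 1 count, where Hist2h3c1 was added, and 2 by direct counts, where it was Hist1h2ba and Hist3h2ba. The medians of the 5 companion gene lists other than the marker lists were higher by direct TPM. Direct TPM was higher for protein-coding genes in general, with a median log2 ratio over alignment-based TPM of 0.66, against 0.35 for members. The higher lists and the higher summed level by direct TPM stand beside that general shift. With 2 libraries, leaving out 1 leaves a value with no error. No paired analysis was possible because the 2 libraries form 1 group.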
